A study of Mus musculus with 6 samples.

Results

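The genes described here encode the enzymes of cholesterol and fatty acid synthesis and the proteins that control them through the sterol regulatory element-binding proteins (SREBPs). The set was a list of 34 gene symbols: 19 of the sterol branch, 5 SREBP regulators and 10 of the fatty acid branch. Of these, 31 stood as rows of their own among the 22988 rows used of each RNA table, namely 17 of the sterol branch, all 5 regulators and 9 of the fatty acid branch. The symbols Tm7sf2 and Scd2 occurred only in rows combined with another gene and are given separately. The RNA level of Hmgcs1 was not analysed here.

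RNA was sequenced from C2C12 cells, a mouse myoblast line labelled as strain C3H, grown in serum-containing DMEM. The 3 libraries of polyadenylated RNA were siNS non-starved (the control library), siNS kept 4 h in HBSS, a balanced salt solution, with HEPES and antibiotics (the starved library), and siFoxk1 non-starved (the knockdown library). All cells had received an siRNA, either siNS or siRNA against Foxk1, a forkhead transcription factor, and no library of starved cells with siFoxk1 was analysed here. The design set starvation and Foxk1 depletion each against the control, and the starved and knockdown libraries are also set against each other below. Levels are FPKM, fragments scaled to transcript length and library size, with the 95% interval that the authors' tables give. Each group had 1 library, so there is no spread between replicates, no test was possible, and every difference is between these libraries. Where 2 intervals do not overlap they are called apart.

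Foxk1 itself was at 9.09 FPKM (7.76 to 10.4) in the control, 16.1 FPKM (13.3 to 18.9) in the starved and 5.15 FPKM (4.29 to 6.02) in the knockdown library. All 3 intervals were apart, with the lowest in the knockdown library. The 7 myoblast markers, Myod1, Myf5, Pax7, Des, Cdh15, Chrna1 and Chrnb1, were at 1 FPKM or more in every library. Of the 9 adipocyte markers, 6 were under 1 FPKM in every library, including Adipoq and Plin1.

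SREBPs are membrane-bound transcription factors of the endoplasmic reticulum. When sterols are low, the escort protein Scap carries them to the Golgi, where proteases release the active part. When sterols are high, Insig1 and Insig2 hold Scap back. Srebf2 encodes the form known mainly for cholesterol synthesis and Srebf1 the forms known mainly for fatty acid synthesis. In the sterol branch acetyl-CoA is turned through mevalonate into farnesyl diphosphate, squalene, lanosterol and then cholesterol. In the fatty acid branch cytosolic acetyl-CoA is turned into palmitate, which is elongated and desaturated.

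All 31 genes were at 1 FPKM or more in every library, so none entered through a single library. In the control the sterol branch ran from 5.79 FPKM for Hsd17b7 to 83.7 FPKM for Fdps, with a median of 14.7 FPKM. The regulators ran from 14.8 FPKM for Insig1 to 76.1 FPKM for Srebf2, and Srebf1 was at 29.3 FPKM. The fatty acid branch ran from 1.63 FPKM for Lpin1 to 83.7 FPKM for Scd1, with a median of 30.5 FPKM. The precision was similar in the 3 libraries, with a median half-width of the members' intervals of 18.7%, 19.5% and 20.0% of the value in the control, starved and knockdown library.

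The first comparison asked what differed after starvation. In the starved library 4 genes of the sterol branch were low, the enzyme genes Fdps, Hsd17b7 and Idi1 and the carrier gene Stard4, while the regulators Insig1 and Insig2 and the lipid genes Lpin1 and Acss2 were high. Of the 31 genes, 4 were higher apart and 4 lower apart, 12.9% in each direction. The shares among all 11396 expressed rows were 12.2% higher and 10.9% lower, so the set as a whole lay near the background. The directions were unevenly placed: the 4 lower genes all belonged to the sterol branch (23.5% of its 17 members), and the 4 higher genes were 2 regulators and 2 genes of the fatty acid branch. With each library scaled to the same FPKM sum, 5 members were higher and 2 lower, and over all rows the share of higher calls among calls moved from 52.7% to 66.5%.

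Fdps, which makes farnesyl diphosphate, was at 83.7 FPKM (68.5 to 99.0) in the control, 43.6 FPKM (35.1 to 52.1) in the starved and 101 FPKM (80.9 to 121) in the knockdown library. The starved library was at 0.521 times the control, and its interval lay below both others. On the log2(FPKM + 1) scale, which is used for all fold changes and understates those of low genes, the difference from the control was -0.92, and 3.52% of expressed rows were lower than that. Hsd17b7, a reductase acting after lanosterol, was at 5.79 FPKM (4.14 to 6.53), 2.61 FPKM (1.70 to 2.81) and 7.82 FPKM (5.57 to 9.06) in the same order of libraries. The starved level was again the low one, at 0.451 times the control (log2 fold change -0.91).

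Stard4, which encodes a carrier of cholesterol between membranes, was at 6.36 FPKM (5.03 to 7.62) in the control, 3.62 FPKM (2.72 to 4.78) in the starved and 6.94 FPKM (5.36 to 8.51) in the knockdown library. Idi1, the isomerase that makes the partner substrate for Fdps, was at 20.4 FPKM (15.0 to 21.8), 13.3 FPKM (9.17 to 14.9) and 19.3 FPKM (13.9 to 21.0). Both were lower apart from the control in the starved library, with log2 fold changes of -0.67 and -0.58, but by narrow gaps between limits. With equal FPKM sums both calls were lost, and with scaling by the median ratio of all rows that of Idi1 was lost.

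The remaining 13 sterol genes overlapped the control, and 10 of them had values below it. Their log2 fold changes ran from -0.48 for the squalene epoxidase gene Sqle to 0.39 for the squalene synthase gene Fdft1. In the mevalonate part of the pathway the values were -0.42 for Acat2, -0.41 for Mvk, -0.32 for Pmvk and 0.02 for Mvd. After squalene they were -0.15 for Lss, -0.26 for Cyp51, -0.39 for Sc4mol, -0.04 for Nsdhl, -0.40 for Ebp, 0.24 for Sc5d and -0.40 for Dhcr7. Of the 17 sterol genes, 14 were thus below the control, and the branch median was -0.40, beside -0.01 for all expressed rows. The summed level of the branch was 323 FPKM in the control, 240 FPKM in the starved and 359 FPKM in the knockdown library. Without Fdps, the highest member, the sums were 239, 197 and 258 FPKM.

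Insig1 was at 14.8 FPKM (11.1 to 17.2) in the control, 26.2 FPKM (18.9 to 28.4) in the starved and 20.7 FPKM (15.4 to 23.2) in the knockdown library. Insig2 was at 20.6 FPKM (16.3 to 24.4), 32.0 FPKM (26.5 to 41.5) and 19.9 FPKM (15.7 to 23.8). Both genes of these endoplasmic reticulum anchors were highest in the starved library, at 1.78 and 1.56 times the control, with log2 fold changes of 0.79 and 0.61. Insig1 is itself a known SREBP target and stood opposite in direction to the sterol genes that were lower apart. The transcripts of the SREBPs and of Scap overlapped among all libraries. With equal FPKM sums, however, Srebf1 was higher apart in the starved than in the knockdown library. In the order control, starved, knockdown, Srebf1 measured 29.3, 36.3 and 24.8 FPKM and Srebf2 76.1, 87.7 and 87.9 FPKM. Scap measured 20.6 FPKM in the control, with log2 fold changes of -0.08 in starved and -0.11 in depleted cells.

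Lpin1, which encodes a phosphatidate phosphatase and coregulator, was at 1.63 FPKM (1.31 to 1.94) in the control, 4.57 FPKM (3.80 to 5.34) in the starved and 2.48 FPKM (1.99 to 2.96) in the knockdown library. The starved level was 2.81 times the control, and its log2 fold change of 1.09 made Lpin1 the only one of the 31 to reach 2-fold on that scale; 2.39% of expressed rows were higher. With a pseudocount of 5 its value was 0.53. Acss2, which makes acetyl-CoA from acetate, was at 2.86 FPKM (2.28 to 3.45), 4.83 FPKM (3.94 to 5.73) and 2.65 FPKM (2.08 to 3.22), with the starved library alone high (log2 fold change 0.59). The stearoyl-CoA desaturase gene Scd1 stood at 83.7 FPKM (66.5 to 95.3), 125 FPKM (94.8 to 142) and 73.7 FPKM (57.9 to 86.3). Its starved and control intervals overlapped at their ends, and they were apart with either of the other scalings. Levels near the control were seen for Fasn, Acaca and Acly, with log2 fold changes of -0.10, 0.04 and -0.20. The median of the fatty acid branch was 0.04.

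**Figure D1:**
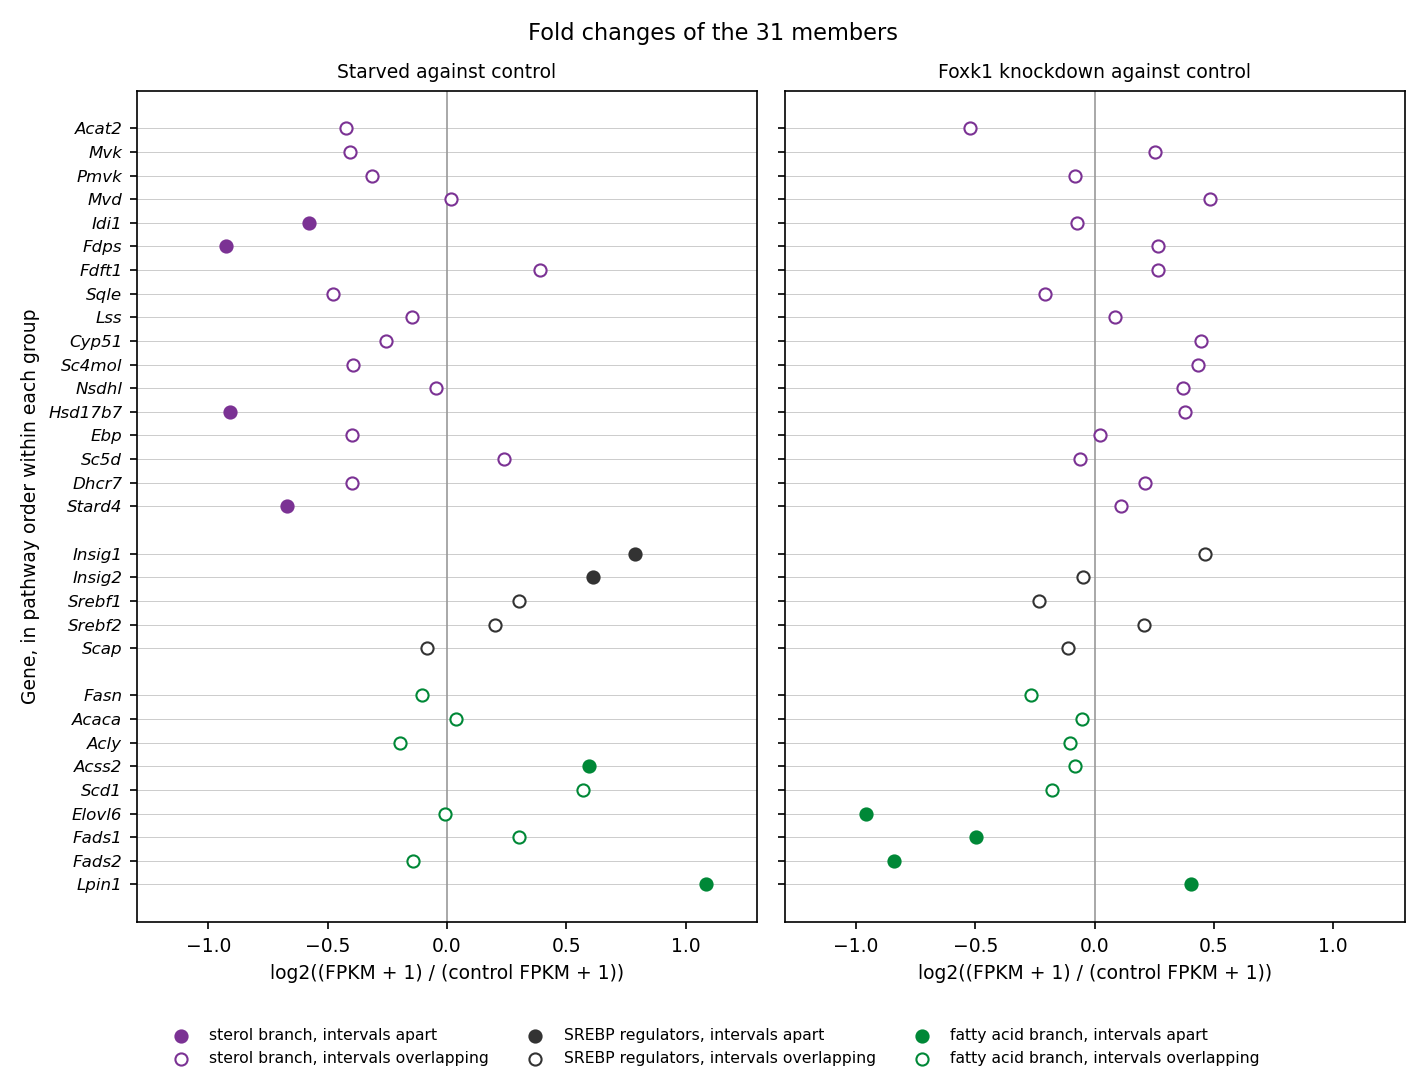
Log2 fold changes of the 31 genes against the control library, starved on the left and Foxk1 knockdown on the right, in pathway order, with filled points where the authors' intervals are apart. In the starved library 14 of 17 sterol genes lie left of 0, whereas in the knockdown library the 3 filled points left of 0 are Elovl6, Fads1 and Fads2.

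The second comparison asked what differed after Foxk1 depletion. In the knockdown library 3 genes of fatty acid elongation and desaturation, Elovl6, Fads1 and Fads2, were low, and Lpin1 was high. No sterol gene was apart from the control. Other genes of these steps overlapped the control, among them Scd1 (log2 fold change -0.18). The same held for Elovl1 (-0.13), Elovl5 (-0.06), Tecr (-0.16) and Hsd17b12 (-0.44) of a further list, named after their values were seen. Of the 31 genes, 1 was higher apart and 3 were lower apart (3.23% and 9.68%), beside 8.89% and 7.13% of 11357 expressed rows. The 3 lower genes all belonged to the fatty acid branch, where they were 33.3% of the 9 members. As both comparisons share the control library, they are not independent of each other.

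Elovl6, the elongase that extends palmitate to stearate, was at 12.9 FPKM (10.5 to 15.1) in the control, 12.8 FPKM (10.1 to 15.1) in the starved and 6.17 FPKM (4.93 to 7.40) in the knockdown library. The control and starved libraries were alike and the knockdown stood at 0.477 times the control, a log2 fold change of -0.96 that 1.64% of expressed rows fell below. Fads2, the desaturase of the first step in making long polyunsaturated fatty acids, was at 71.2 FPKM (58.1 to 84.4), 64.4 FPKM (53.1 to 75.7) and 39.3 FPKM (31.6 to 47.1). Its knockdown level was below both other intervals, at 0.552 times the control (log2 fold change -0.84). Fads1, the desaturase of a later step, was at 43.6 FPKM (36.2 to 50.6), 54.0 FPKM (44.2 to 63.7) and 30.6 FPKM (25.0 to 36.1). The upper limit in the knockdown library lay just under the lower limit of the control (log2 fold change -0.50), and this call was lost with equal FPKM sums.

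The other fatty acid genes overlapped the control except Lpin1, which was 1.52 times as high (log2 fold change 0.40) with limits of 1.94 and 1.99 FPKM facing each other. Log2 fold changes were -0.27 for Fasn, -0.05 for Acaca, -0.10 for Acly, -0.08 for Acss2 and -0.18 for Scd1. With these, 8 of the 9 genes of the branch were below the control, and the branch median was -0.18, beside 0.02 for all expressed rows. The summed level of the 9 genes was 312 FPKM in the control, 353 FPKM in the starved and 242 FPKM in the knockdown library. Without Scd1 it was 229, 228 and 168 FPKM.

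Sterol genes of the knockdown library overlapped the control in all 17 cases. Of these, 12 had values above the control, and the branch median was 0.21. The highest were the decarboxylase gene Mvd, with 6.05 FPKM (4.59 to 7.56) in control and 8.86 FPKM (6.74 to 11.0) in depleted cells, and the lanosterol demethylase gene Cyp51. Cyp51 measured 15.8 FPKM (12.3 to 17.8) in control, 13.1 FPKM (9.74 to 14.7) in starved and 21.9 FPKM (16.7 to 25.0) in depleted cells. The lowest was the thiolase gene Acat2, at 14.5 FPKM (11.5 to 16.9) and 9.76 FPKM (7.62 to 11.9). Log2 fold changes of these 3 genes were 0.48, 0.44 and -0.52. Among the regulators the values were 0.46 for Insig1, -0.05 for Insig2, -0.23 for Srebf1, 0.21 for Srebf2 and -0.11 for Scap.

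**Figure D2:**
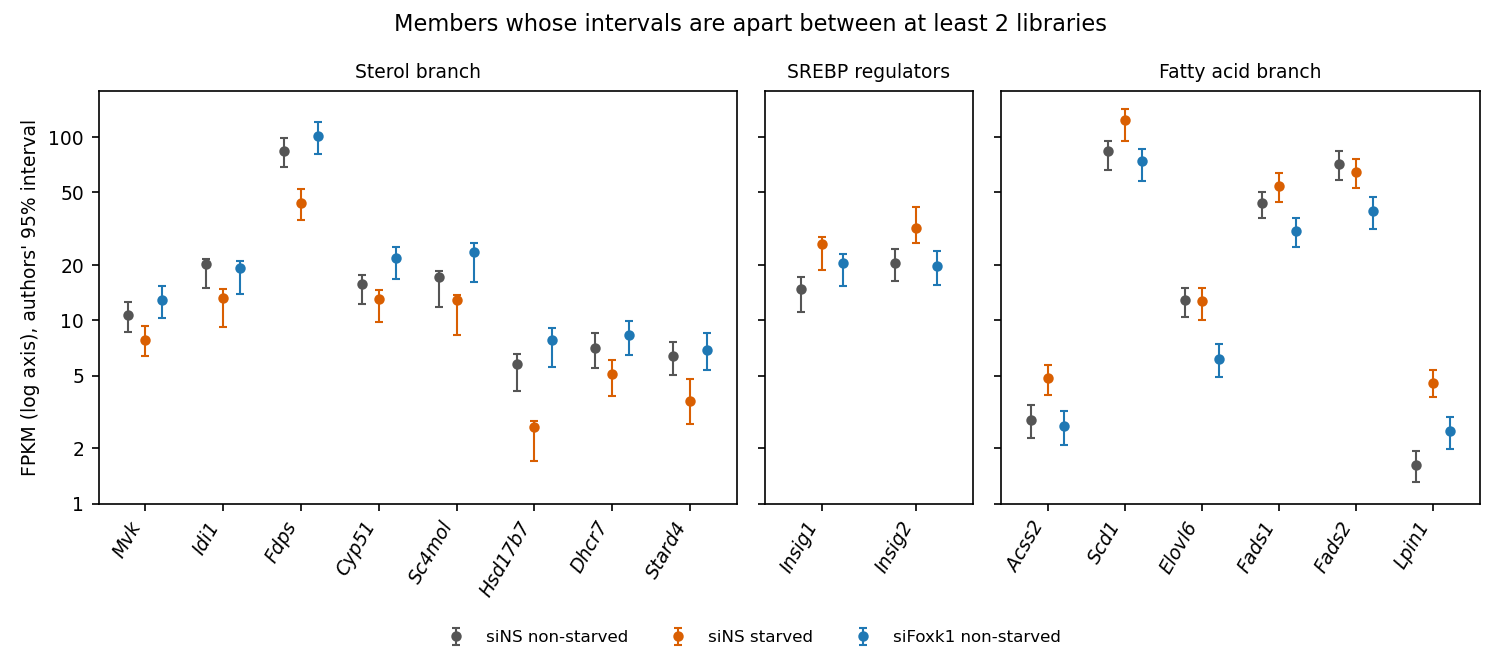
FPKM on a log axis with the authors' 95% intervals for the 16 genes whose intervals are apart between at least 2 of the 3 libraries, by group. Starved points are lowest for each of the 8 sterol genes, and knockdown points are lowest for 5 of the 6 fatty acid genes, all but Lpin1. The genes shown were chosen by these same intervals, so this order follows in large part from the choice.

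Set directly against each other, the starved and knockdown libraries had 14 of the 31 genes apart, against 8 and 4 in the comparisons with the control. These were 7 with the higher and 7 with the lower level in starved cells (22.6% in each direction), beside 13.3% higher and 13.7% lower of 11478 expressed rows. All 7 lower genes were of the sterol branch, 41.2% of its members, and the 7 higher genes were 6 of the fatty acid branch and Insig2. The starved level was 0.334 times the knockdown level for Hsd17b7 (log2 fold change -1.29) and 0.432 times for Fdps (-1.19). These were the 2 members past 2-fold on the log2(FPKM + 1) scale. Stard4 (-0.78), the sterol oxidase gene Sc4mol (-0.82), Cyp51 (-0.70), the mevalonate kinase gene Mvk (-0.66) and the reductase gene Dhcr7 (-0.61) were also lower apart. Sc4mol was at 17.4 FPKM (11.9 to 18.7) in the control, 13.0 FPKM (8.31 to 13.8) in the starved and 23.8 FPKM (16.3 to 26.3) in the knockdown library. Mvk was at 10.7 FPKM (8.70 to 12.6), 7.85 FPKM (6.36 to 9.34) and 13.0 FPKM (10.4 to 15.4), and Dhcr7 at 7.03 FPKM (5.53 to 8.51), 5.09 FPKM (3.85 to 6.06) and 8.29 FPKM (6.48 to 9.95). For these 3 genes and Cyp51 the control lay between the other libraries and overlapped both.

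In the fatty acid branch the starved library was higher apart than the knockdown library for Elovl6 (log2 fold change 0.95), Fads1 (0.80), Scd1 (0.75), Fads2 (0.70), Lpin1 (0.68) and Acss2 (0.67). By the plain ratio of FPKM Elovl6 was past 2-fold as well, at 2.08 times the knockdown level. Only Fasn, Acaca and Acly of that branch overlapped. The median of the branch was 0.68, and that of the sterol branch -0.47, beside -0.02 for all expressed rows. Over the 3 libraries 13 of 17 sterol genes were lowest in the starved library and 7 of 9 fatty acid genes were lowest in the knockdown library. The shares of all expressed rows lowest in each library were not computed, so these counts have no background beside them. In 15 of the 31 genes all 3 intervals overlapped, and the order of their levels is within the intervals.

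The 2 combined rows had no intervals apart. The row of Scd2 and Mir5114 was at 206 FPKM (142 to 989) in the control, 274 FPKM (230 to 610) in the starved and 130 FPKM (84.9 to 927) in the knockdown library. These intervals are too wide to place the desaturase gene Scd2, a near copy of Scd1 with which it may exchange reads. The row of Tm7sf2, a sterol reductase gene, and Vps51 was at 21.7, 23.4 and 24.1 FPKM. Among single rows, Fdft1 had the widest interval, with a half-width of 41.4% of its value in the control. In RefSeq (GRCm38.p6) its span overlaps that of the cathepsin gene Ctsb. Among the genes apart from the control, the span of Lpin1 overlaps Ntsr2, that of Acss2 overlaps Acss2os, and those of Insig1 and Elovl6 each overlap a long noncoding RNA gene. The span of Fdps overlaps a small nuclear RNA gene, and that of Fads1 a microRNA gene. Whether reads were assigned by strand is not given in the sources used here, so reads of such neighbours may not be separated.

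RefSeq promoter windows (GRCm38.p6), from 250 bases before to 50 after a start site, were found for 27 of the 34 symbols, 1 of them under a newer symbol, and gave 35 windows. Motifs were searched on both strands. The CCAAT box, to which NF-Y binds, stood in 14 of 18 windows of the sterol branch (77.8%), in 5 of 10 of the regulators and in 3 of 7 of the fatty acid branch, beside 37.4% of all 32851 windows and 38.2% of those of protein-coding genes. The GC box GGGCGG stood in 26 of 35 windows, beside 46.2% of protein-coding windows, and the E-box CACGTG in 6 of 35, beside 7.84%. A form of the sterol regulatory element, TCACNCCAC, was found in 1 window, that of Hmgcs1, beside 1.24% of all windows. The forkhead motif TGTTTAC stood in 1 of 35 windows (2.86%), that of Elovl6, beside 3.65% of all windows, so its share was near the background. Of the other genes low in the knockdown library, Fads2 had a window without this motif and Fads1 had no window. These are matches of letters and not binding sites, and the Foxk1 and Sin3A regions, which are on build mm9, were not used here.

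The 250 bases before the start site are shown for 4 genes that were apart from the control, chosen after their values were seen: Idi1 and Hsd17b7, low in the starved library, Insig1, high in it, and Elovl6, low in the knockdown library. They lie at chr13:8885356-8885605 (plus strand), chr1:169969206-169969455 (minus strand), chr5:28071162-28071411 (plus strand) and chr3:129532136-129532385 (plus strand) of GRCm38.p6. Each runs 5′ to 3′ on the gene's strand, and capitals mark the CCAAT box, the E-box and the forkhead motif given above on either strand, and no marked motifs overlap.
Idi1: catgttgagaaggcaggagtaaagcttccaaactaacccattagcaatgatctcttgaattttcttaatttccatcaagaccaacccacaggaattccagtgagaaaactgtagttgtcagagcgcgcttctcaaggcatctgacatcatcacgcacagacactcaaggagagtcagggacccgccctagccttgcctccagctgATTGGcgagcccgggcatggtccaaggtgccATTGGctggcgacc
Hsd17b7: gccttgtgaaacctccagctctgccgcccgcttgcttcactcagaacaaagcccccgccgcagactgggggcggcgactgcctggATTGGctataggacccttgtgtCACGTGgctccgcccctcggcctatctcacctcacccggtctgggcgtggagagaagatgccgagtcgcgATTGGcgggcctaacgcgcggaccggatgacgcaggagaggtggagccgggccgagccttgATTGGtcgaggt
Insig1: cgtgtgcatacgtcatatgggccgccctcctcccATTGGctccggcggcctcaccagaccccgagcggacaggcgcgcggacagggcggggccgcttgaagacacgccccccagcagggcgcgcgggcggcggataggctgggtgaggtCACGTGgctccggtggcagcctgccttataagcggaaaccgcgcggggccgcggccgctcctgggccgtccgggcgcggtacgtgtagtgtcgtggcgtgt
Elovl6: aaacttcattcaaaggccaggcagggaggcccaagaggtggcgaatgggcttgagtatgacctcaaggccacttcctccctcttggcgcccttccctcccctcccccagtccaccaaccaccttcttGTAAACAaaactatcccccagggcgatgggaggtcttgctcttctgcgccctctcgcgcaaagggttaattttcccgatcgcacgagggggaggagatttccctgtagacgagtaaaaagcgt
Idi1 holds 2 CCAAT boxes, both on the reverse strand. Hsd17b7 holds 3 and 1 E-box, and Insig1 holds 1 of each. Elovl6 holds neither and has the forkhead motif on the reverse strand.

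Other genes of lipid handling were taken from lists written out beside the members, with earlier results of these data known. The lysosomal cholesterol transporter gene Npc1 was higher apart in the starved library, with a log2 fold change of 0.79, and Npc2, whose product hands cholesterol to that transporter, in the knockdown library (0.62). Both were named after their values were seen.

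Of 14 expressed genes of SREBP processing and turnover, 0 were higher and 1 was lower apart in the starved library, namely Sec24d, a coat protein of transport vesicles (log2 fold change -0.57). In the knockdown library 1 was higher and 1 lower apart. Erlin2 and Erlin1, which encode partner proteins of the endoplasmic reticulum membrane that act in protein breakdown, stood at 0.72 and -0.66. Each of these counts of 1 is 7.14% of the list, beside 10.9% of all expressed rows lower in the starved library and 8.89% higher and 7.13% lower in the knockdown library, so the list lay near or below the background. Of the sterol efflux and LXR genes, 5 of 12 were expressed in the starved comparison and 6 in the knockdown comparison, and in each 2 were higher apart and 0 lower apart, beside 12.2% and 8.89% higher among all expressed rows. Mylip, a ubiquitin ligase gene and LXR target, was at 5.35 FPKM (4.32 to 6.39) in the control, 14.7 FPKM (11.8 to 17.3) in the starved and 9.05 FPKM (7.29 to 10.8) in the knockdown library. The cholesterol exporter gene Abcg1 was at 0.497, 1.75 and 0.229 FPKM, so it entered the starved comparison only through the starved library. Likewise Smpdl3a, at 0.617, 0.996 and 2.52 FPKM, entered the knockdown comparison only through the knockdown library.

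Among 20 expressed other fatty acid and glycerolipid synthesis genes, 0 were higher and 2 lower apart in the starved library, and 0 higher and 4 lower apart in the knockdown library. The 2 lower genes were 10.0% of the list, near the 10.9% of all expressed rows, and the 4 were 20.0%, beside 7.13%. Mlx, which encodes the partner of carbohydrate-responsive factors, measured 22.7 FPKM in control and 11.0 FPKM in starved cells, and the acetoacetyl-CoA synthetase gene Aacs at 15.0 and 8.72 FPKM. Acsl1, which activates long-chain fatty acids, was at 6.32 FPKM (5.17 to 7.41) in the control, 7.85 FPKM (6.34 to 9.33) in the starved and 2.49 FPKM (1.95 to 3.02) in the knockdown library. Its log2 fold change of -1.07 in the knockdown library was larger than those of Elovl6 and Fads2. The other 3 lower genes there, Dgat2 (-0.64), Acsl5 (-0.56) and Pcyt1a (-0.42), were named after their values were seen.

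Among 18 expressed genes of fatty acid oxidation and lipolysis, starved cells had 6 higher and 1 lower apart, and depleted cells 3 higher and 0 lower. The higher shares were 33.3% and 16.7%, beside 12.2% and 8.89% of all expressed rows, and the lower share in starved cells was 5.56%, beside 10.9%. Cpt1a, which carries out the committed step of mitochondrial fatty acid uptake, was at 28.5 FPKM (24.3 to 32.7) in the control, 55.7 FPKM (47.1 to 64.3) in the starved and 40.5 FPKM (33.8 to 47.2) in the knockdown library. Lipe, which encodes hormone-sensitive lipase, was at 1.12, 4.15 and 1.24 FPKM, high in the starved library alone. The uncoupling protein gene Ucp2 was at 11.5, 8.48 and 33.7 FPKM, high in the knockdown library alone.

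**Figure D3:**
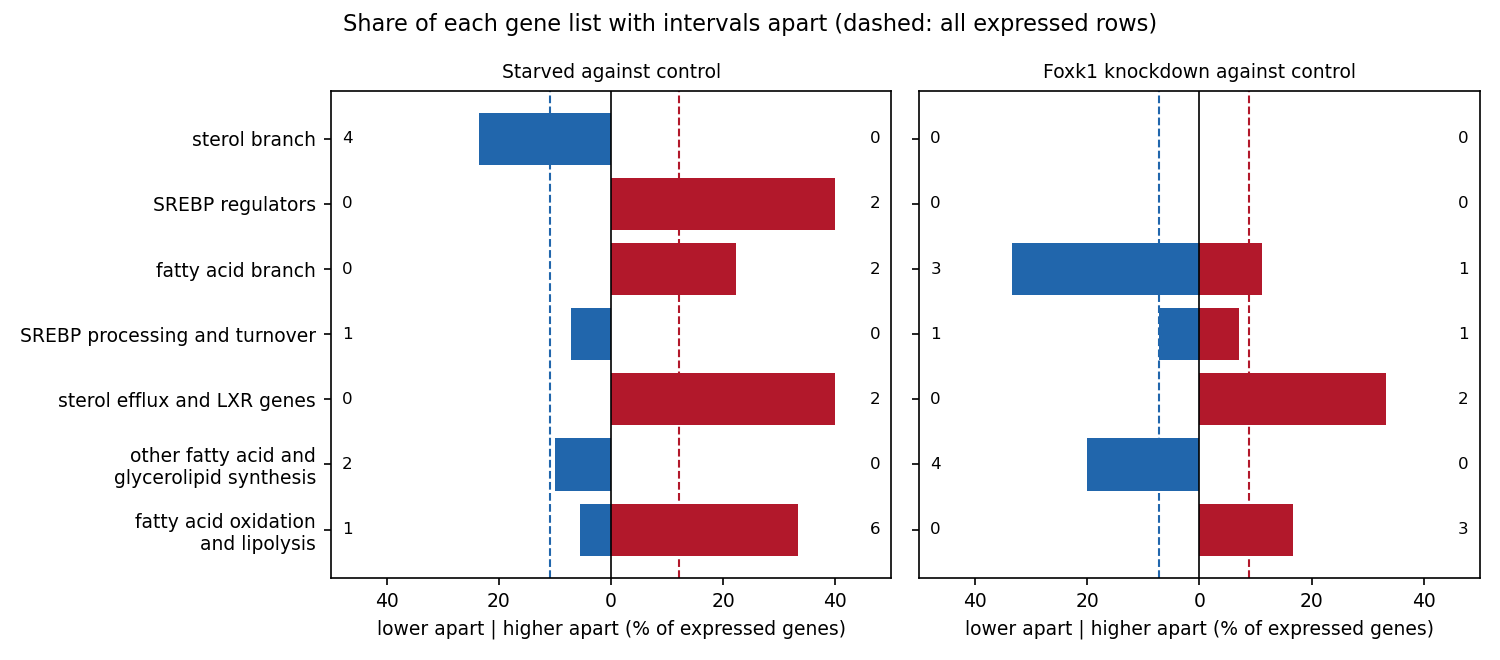
Share of the expressed genes of each list with intervals apart from the control, lower to the left and higher to the right, with counts at the edges and dashed lines at the share of all expressed rows. In the starved library the sterol branch has 4 genes lower apart and none higher apart, and in the knockdown library the fatty acid branch has 3 lower and 1 higher apart.

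The 9 adipocyte markers, of which Pparg, Cebpa and Lpl were at 1 FPKM or more, summed to 22.3 FPKM in the control, 28.5 FPKM in the starved and 31.6 FPKM in the knockdown library. Of the 3 expressed markers, Lpl (log2 fold change 0.75) and Cebpa (0.59) were higher apart in the knockdown library, and Pparg overlapped the control (0.22). Of all expressed rows 8.89% were higher apart there. Fabp4, under 1 FPKM, had a lower value there, 0.143 FPKM beside 0.388 FPKM in the control, with overlapping intervals. Cebpa was higher apart in the starved library too (0.95). Plin1 and Retn were at 0 in all 3 libraries. The myoblast markers summed to 831, 742 and 847 FPKM. Among these 7 markers, 1 was lower and 1 higher apart in starved cells. That is 14.3% in each direction, beside 10.9% lower and 12.2% higher of all expressed rows, so the counts lay near the background. Myod1 was low there, at 70.1, 10.7 and 95.8 FPKM, and Myf5 was high, at 16.8, 29.6 and 17.5 FPKM. The part of these markers in the results was not tested. The 5 hepatocyte and 4 endothelial markers were under 1 FPKM throughout, as were 4 of the 5 macrophage markers found. In bulk RNA fewer cells of a type and less RNA per cell cannot be told apart.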

How the data were processed

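Polyadenylated RNA of 3 libraries was used. Named in the submitters' processing notes, with no role stated, are build mm9, Cuffdiff, Cufflinks 2.1.1, Bowtie2 2.1.0 and TopHat2 2.0.9. Per the file headers, the authors deposited a mean FPKM per gene symbol with the limits of a 95% interval. How the intervals were made, and on which annotation, is not given in the sources used here. Neither the word mean nor the labels tell whether cultures were pooled. Steps of whole reads were not seen among low FPKM (at most 2.02% of low rows shared a bin of ratios), so the depth is unknown and counts were not modelled.

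Deposited FPKM were used unscaled. The row of Zzz3, with reversed limits in the knockdown table, was dropped. Rows under 1 FPKM in both libraries of a comparison were left out of it, and fold changes are log2 ratios with a pseudocount of 1. Members were matched by exact symbol. Genes named in full are those with intervals apart in at least 1 comparison. From each further list up to 3 genes are named, those apart from the control with the largest changes, and exceptions are marked. Members and lists were chosen with earlier results of these data known. Scripts were tested on simulated data. They ran in Python 3.11.15 with matplotlib 3.10.9, pandas 2.3.3 and numpy 2.4.6. ChIP-seq regions were not used here. Some genes of the further sterol list are not reported here, and neither are its counts.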

Additional observations from a re-analysis of the deposited data

How the results depend on the processing

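Alternatives covered the filter, pseudocount, scaling, call rule and list statistic. With 1 library per group, no replicate could be left out. Of 36 recomputed counts of members apart, 26 stayed within 1.5 times the reported count. At 5 FPKM or more, starvation left 2 members higher than the control and Foxk1 depletion 0. Lpin1 and Acss2, the only fatty acid genes called higher after starvation, were lost, and so was Lpin1 after depletion. With equal FPKM sums 2 were lower in the starved library, since Idi1 and Stard4 were lost. When intervals apart and 1.5-fold on the log2(FPKM + 1) scale were both asked for, 0 were higher in the knockdown library. By the plain ratio of FPKM, Lpin1 was past 1.5-fold there, at 1.52 times the control. A 2-fold rule on the same scale, in place of intervals, left 1 higher and 0 lower after starvation and 0 in either direction after depletion. For starved against knockdown it left 0 higher and 2 lower. By the plain ratio of FPKM, Hsd17b7 was also past 2-fold after starvation, at 0.451 times the control. Elovl6 was so after depletion, at 0.477 times the control, and in starved against knockdown, at 2.08 times.

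Of 42 recomputed branch medians, 36 moved by less than 0.1 (log2). A pseudocount of 5 gave -0.29 for the sterol branch in the starved library, and, for starved against knockdown, -0.35 for the sterol and 0.36 for the fatty acid branch. Means in place of medians gave the fatty acid branch 0.24 after starvation, -0.29 after depletion and 0.52 for starved against knockdown. Of 372 recomputed fold changes of single members, 370 stayed within the range set by the authors' limits, and no called member changed sign. That range is wide, so staying within it says little. Hsd17b7 in the starved library moved from -0.91 to -0.50 with a pseudocount of 5 and was still inside it. The interval width limits these comparisons most for Fdft1 and the combined row of Scd2.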
